A study of Mus musculus with 2 samples.

Results

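The messenger RNAs of hnRNP proteins, SR proteins and core spliceosome subunits were described here in sorted mouse alveolar macrophages, as a set of 53 genes of the 22180 measured by a feature with a single gene symbol. Members were taken by name alone: every symbol beginning with Hnrnp, with Srsf and a digit, with Sf3a, with Sf3b or with Snrp, and in addition Rbm39, Rbm25, U2af1, U2af2, Tra2a, Tra2b and Prpf8, leaving out pseudogene symbols. The naming rule uses no measured value, although it was set with earlier results of these data known, and each gene took, of its features, the one with the highest mean of both arrays. The set holds 18 hnRNP genes, 10 SR protein genes, 4 SR-related regulators, 11 SF3 and U2AF genes, 9 Sm and snRNP protein genes and the U5 scaffold gene Prpf8.

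Alveolar macrophages, the resident macrophages of the air spaces, were sorted by flow cytometry out of mouse lungs at an age of 8 to 10 weeks, and RNA of each genotype was hybridised to 1 Affymetrix gene-level array. Control mice carried Lysm-Cre alone, and the other mice carried Lysm-Cre together with Ssu72fl/fl, so both groups carry Cre. Lysm-Cre expresses the recombinase from the lysozyme 2 locus in the whole myeloid lineage and not in alveolar macrophages only, and fl/fl marks a gene flanked by recombination sites, here that of Ssu72, which dephosphorylates the tail of RNA polymerase II. The number of mice behind an array was not given in the sources used here. With 1 array per genotype there is no replicate check and no test between genotypes, and so few arrays limit the precision of every value. Where a gene is said to read a pair of values, the control array comes first. All differences subtract the log2 value on the control array from that on the array labelled Ssu72fl/fl, and "lower" and "higher" refer to that subtraction.

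Splicing joins exons by removing introns from the nascent transcript. The U1 particle and the U2AF dimer recognise the ends of the intron, the U2 particle with its SF3 complexes settles on the branch point, and the U4/U6.U5 particle then builds the active centre around Prpf8. SR proteins bind exons and mostly favour the use of nearby splice sites, whereas hnRNP proteins coat the transcript and often oppose it, and many genes of both families limit their own messenger RNA through alternative exons that lead to decay. A gene-level feature gives 1 value per gene and does not separate such transcripts.

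Promoter windows of the members were taken from RefSeq (assembly GRCm38.p6) and cover 250 bases before to 50 bases after each annotated start; 46 of the 53 genes had a window, 61 windows in all, and windows of one gene can overlap. Those of 3 genes are printed for orientation (the 250 bases before the start), from Rbm39 and Hnrnpm, the members with the most negative differences, and from Snrpg, the member with the highest level-adjusted difference. Capitals mark exact matches, on either strand, to CCGGAAG (a core of the ETS factor site) and CGCGAGA (a motif common in housekeeping promoters). The positions are chr2:156180239-156180488 on the minus strand for Rbm39, chr17:33685459-33685708 on the minus strand for Hnrnpm and chr6:86371290-86371539 on the plus strand for Snrpg. Rbm39 has 2 annotated windows, of which the upstream one is shown.
Rbm39: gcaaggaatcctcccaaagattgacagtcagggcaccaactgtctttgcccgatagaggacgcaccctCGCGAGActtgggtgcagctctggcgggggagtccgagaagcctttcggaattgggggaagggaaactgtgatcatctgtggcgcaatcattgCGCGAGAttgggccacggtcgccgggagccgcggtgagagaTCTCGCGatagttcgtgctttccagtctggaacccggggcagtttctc
Hnrnpm: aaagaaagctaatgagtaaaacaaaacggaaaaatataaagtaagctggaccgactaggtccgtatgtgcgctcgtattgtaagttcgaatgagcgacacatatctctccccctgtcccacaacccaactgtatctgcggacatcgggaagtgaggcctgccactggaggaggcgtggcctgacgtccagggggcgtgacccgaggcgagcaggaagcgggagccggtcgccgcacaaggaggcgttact
Snrpg: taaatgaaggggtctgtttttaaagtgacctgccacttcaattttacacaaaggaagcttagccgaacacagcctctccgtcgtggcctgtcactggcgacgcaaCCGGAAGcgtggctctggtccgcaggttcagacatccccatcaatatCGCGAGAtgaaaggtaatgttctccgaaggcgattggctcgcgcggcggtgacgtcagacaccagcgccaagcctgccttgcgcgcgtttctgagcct

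The stretch of Rbm39 held 3 matches to CGCGAGA, that of Snrpg held 1 match to each motif, and that of Hnrnpm held neither. Over the members, 20 of 61 windows (32.8%) held CCGGAAG, against 13.7% of 11901 windows of compared protein-coding genes and 8.86% of all 32851 windows. CGCGAGA was in 10 member windows (16.4%), against 4.11% and 2.56%. The other 3 motifs searched lay nearer to the background: AAGATGGC was in 3.28% of member windows against 3.51% of those of compared protein-coding genes, GCATGCGC in 3.28% against 4.15%, and CACGTG in 8.20% against 9.25%. Member windows were rich in CpG dinucleotides, with a median of 26 per window against 18 in those of compared protein-coding genes, at a median G and C content of 61.0% against 59.7%. All motifs were searched on both strands as exact letters, CCGGAAG and CGCGAGA do not overlap one another in the stretches printed, and a match is not evidence of a bound factor.

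The 2 arrays did not differ alike at every signal level, which bears on each value that follows. Their medians over 33793 features were 4.65 and 4.66, but the 99th percentiles were 8.05 (control) and 7.66. Each difference is therefore given as deposited and, as the level-adjusted difference, after a smooth trend of difference on mean signal over all features was subtracted. The only scatter that can be put beside a gene is the spread, the scaled median absolute deviation of the differences in a bin of genes with similar signal, which describes genes and not animals. The bin of the brightest genes is wide in signal, so its spread of 0.33 also holds part of the trend. Genes were compared where at least 1 array exceeded a floor of 4.65, the median of all values, and values below it were set to it. Ssu72 itself read 4.86 (control) and 5.0, a difference of 0.14 at a spread of 0.14 (level-adjusted 0.15). The place of its probes relative to the floxed part was not given in the sources used here, and this value does not check the label.

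Most splicing genes read lower on the array labelled Ssu72fl/fl. Of the 53 members, 48 could be compared, and 38 of these were lower and 10 higher, where 51.9% of 13015 compared genes were lower. The median difference of the members was -0.17 (from -0.96 to 0.47), against -0.0068 over all compared genes. After level adjustment 33 of 48 were lower, with a median of -0.10, where 45.9% of all compared genes were lower and their median was 0.015. The floor was exceeded on both arrays by 44 members, of which 35 were lower.

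**Figure D1:**
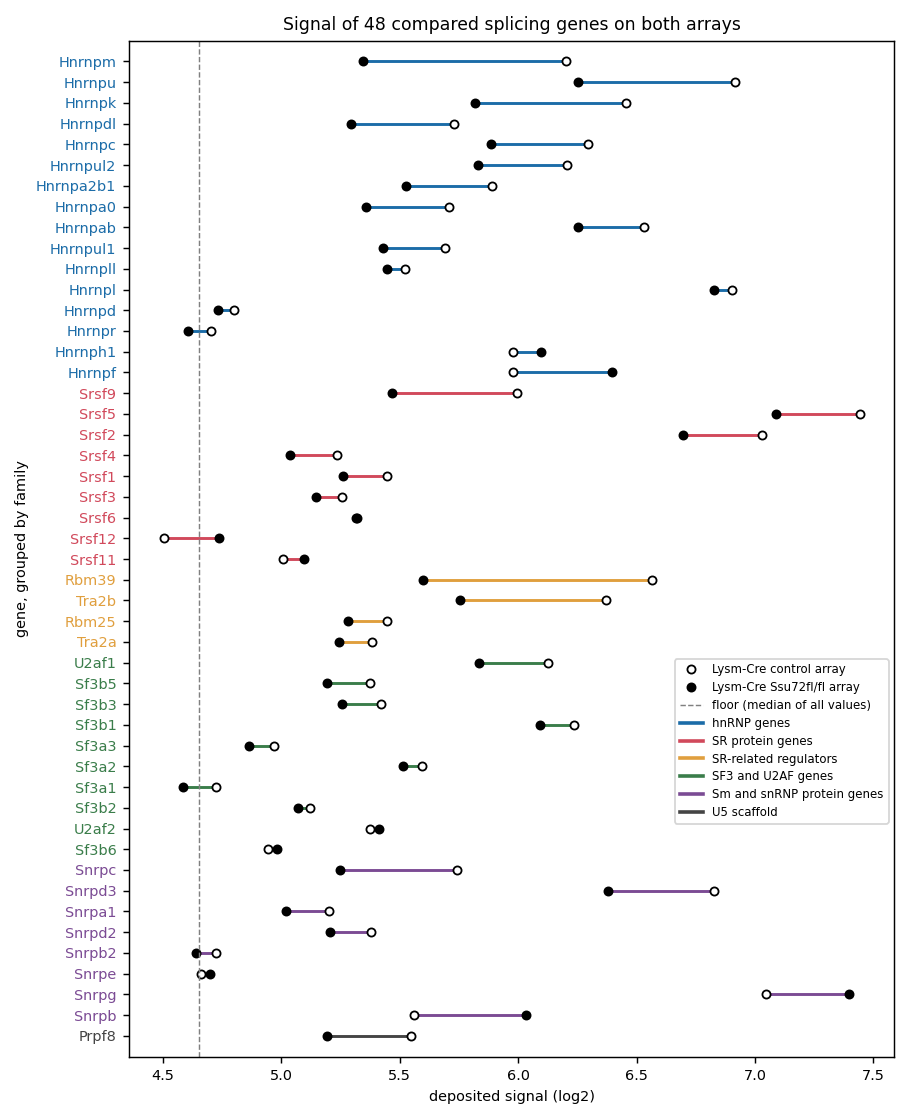
Deposited log2 signal (horizontal axis) of the 48 compared genes (vertical axis, grouped and coloured by family), with the control array as open circles, the array labelled Ssu72fl/fl as filled circles, and the floor of 4.65 as a dashed line. In 38 genes the filled circle lies to the left. The longest lines belong to Rbm39 (6.56 and 5.60) and Hnrnpm (6.20 and 5.34), while Snrpb, Hnrnpf and Snrpg run the other way. For Hnrnpf this holds for the feature used only, and its other features were lower.

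Few of these differences were large. Rbm39, Hnrnpm, Hnrnpu, Hnrnpk and Tra2b were at least 1.5-fold lower, 5 of 48 members, where 1.37% of all compared genes were. No member was at least 1.5-fold higher, where 0.315% of all genes were. No member reached 2-fold in either direction, where 0.0845% of all genes reached it downward and 0.0307% upward. After level adjustment 2 members, Rbm39 and Hnrnpm, remained at least 1.5-fold lower (0.307% of all genes), and 3 members, Snrpg, Hnrnpf and Snrpb, were at least 1.5-fold higher (0.768% of all genes), Hnrnpf by 1 feature only, against its 4 others. The balance of the calls over all genes turned in the same way: 178 lower and 41 higher as deposited, 43 lower and 98 higher after quantile normalization, and 40 lower and 100 higher after level adjustment.

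The lower values of the members were clearest at intermediate signal. Among members with a mean signal from 5 to under 6, 21 of 25 were lower, with a median of -0.18, where 56.5% of 4463 genes in that range were lower and their median was -0.031. Level adjustment left 20 of those 25 lower (median -0.13), where 47.0% of the genes in that range were lower. At a mean signal of 6 or more, 12 of 15 members were lower (median -0.35), close to the 77.0% of 856 genes there, and 4 were at least 1.5-fold lower, where 15.1% were. Level adjustment left 8 of those 15 lower, with a median of -0.0012, where 44.0% of the genes at that signal were lower. The 8 members with a mean signal under 5 had a median of -0.060, and 5 of them were lower. Of 7696 compared genes in that range 46.5% were lower, with a median of 0.0080. Level adjustment left 5 of those 8 members lower (median -0.076), where 3502 of the 7696 genes were lower. Among those 8, Hnrnpr, Sf3a1 and Snrpb2 exceeded the floor on the control array only, and Srsf12 on the other array only. Passing the floor in this way fixed the direction of their deposited differences, so these are not independent observations of direction.

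**Figure D2:**
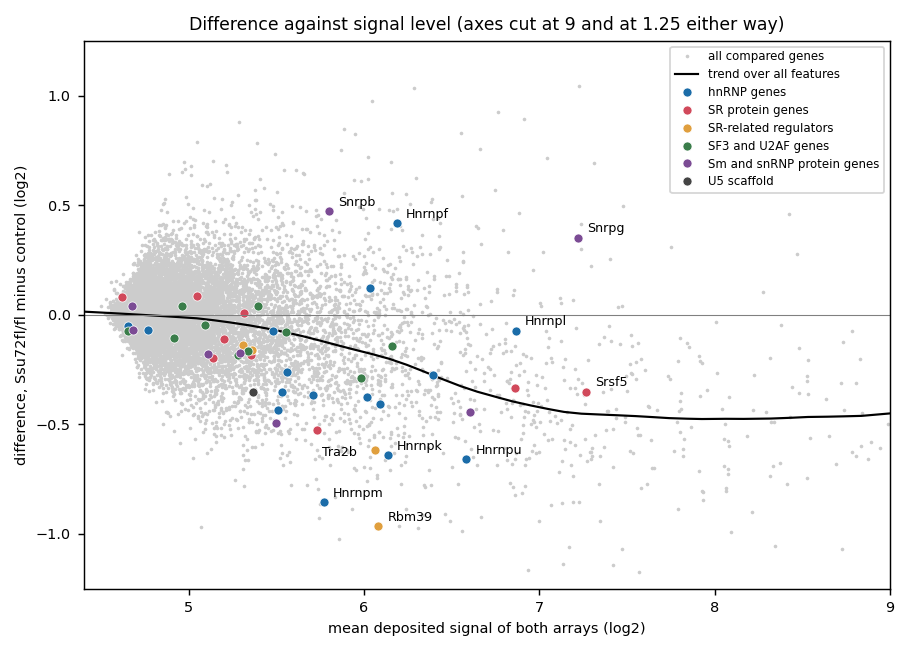
Difference between arrays (vertical axis, log2, Ssu72fl/fl minus control) against mean signal of both arrays (horizontal axis, log2) for all 13015 compared genes (grey; genes beyond the axis limits are not drawn), with the trend over all features (line) and the members coloured by family. Rbm39, Hnrnpm and Tra2b lie well below the trend, Srsf5 lies near it at -0.35, and Snrpg, Snrpb and Hnrnpf lie above zero. The point of Hnrnpf is the feature used, and its other features were lower.

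The hnRNP genes were mostly lower, with 14 of 16 compared genes below zero and a median of -0.31 (13 lower and -0.19 after level adjustment). The 14 include Hnrnpr, above the floor on the control array only. Beside this and each family count below, 51.9% of all compared genes were lower as deposited and 45.9% after adjustment. The hnRNP genes had a median signal of 5.90. As deposited, 56.5% of genes with a signal from 5 to under 6 were lower, and 77.0% of those at 6 or more. Hnrnpm, whose protein binds GU-rich stretches and shapes alternative exon choice, read 6.20 (control) and 5.34. This is 1.81-fold lower (-0.86, level-adjusted -0.73, spread 0.26), and Hnrnpm ranked 32 from the lowest of 13015 genes as deposited and 10 after level adjustment. Hnrnpu, which encodes a nuclear matrix protein that binds RNA and chromatin, read 6.91 and 6.25, or 1.58-fold lower (-0.66, spread 0.33). Its other feature was below the floor on both arrays, and with the mean of both the difference was -0.34, short of 1.5-fold. Genes of like signal were lower too, and the level-adjusted value of Hnrnpu was -0.33.

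Hnrnpk, which encodes a KH-domain protein that binds C-rich RNA and DNA, read 6.46 and 5.82, or 1.56-fold lower (-0.64, level-adjusted -0.44, spread 0.26). That value comes from 1 of 3 features: the others read 5.51 and 5.41 (-0.10), and 4.66 and 4.53, the last of these below the floor. The size of the Hnrnpk difference therefore depends on the feature, though all 3 read lower. Further hnRNP genes with lower values were Hnrnpdl (-0.43), Hnrnpc (-0.41), which encodes a core particle protein that binds U-rich tracts, Hnrnpul2 (-0.38), Hnrnpa2b1 (-0.37), Hnrnpa0 (-0.35), Hnrnpab (-0.28) and Hnrnpul1 (-0.26). Level adjustment took Hnrnpab to -0.0012 and left the other 6 between -0.36 and -0.18.

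Hnrnpl, whose protein binds CA repeats and controls exon choice in immune cells, was nearly level at 6.90 and 6.83 (-0.073, spread 0.33). Genes of its signal were mostly lower, so that its level-adjusted difference was 0.33, and its direction flipped with the scaling. Its relative Hnrnpll stood at -0.077 and Hnrnpd, which encodes the AU-rich element binding protein AUF1, at 4.80 and 4.73 (-0.070, spread 0.11). Hnrnph1, whose protein binds runs of G, read 5.98 and 6.10 (0.12, level-adjusted 0.30, spread 0.26).

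Hnrnpf, a close relative of Hnrnph1, was the 1 member of 3 with several compared features (Hnrnpd, Hnrnpf and Hnrnpk) in which these pointed in opposite directions. Further features of other members, below the floor on both arrays, were not compared. The feature used read 5.98 and 6.40 (0.42, 1.34-fold higher), whereas another of nearly the same mean signal read 6.43 and 5.87 (-0.56). The other 3 features, all above the floor, were lower by -0.24, -0.24 and -0.14, so 4 of 5 features were lower and the mean over the features was -0.15. No direction is given for the gene. Hnrnpr was below the floor on the array labelled Ssu72fl/fl, so its difference of -0.050 is only a bound (the true value is at least that negative), and Hnrnpa3 and Hnrnph2 were below the floor on both arrays.

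Hnrnpa1, the namesake of the A/B group, was measured only by 2 features that also carry symbols of its near-identical copies and so did not enter the set. These read 8.00 and 7.09 (-0.91, level-adjusted -0.44), and 7.30 and 6.86 (-0.44, level-adjusted -0.0056). Both were lower as deposited, but the size differed between them, and which copies they read cannot be told apart.

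**Figure D3:**
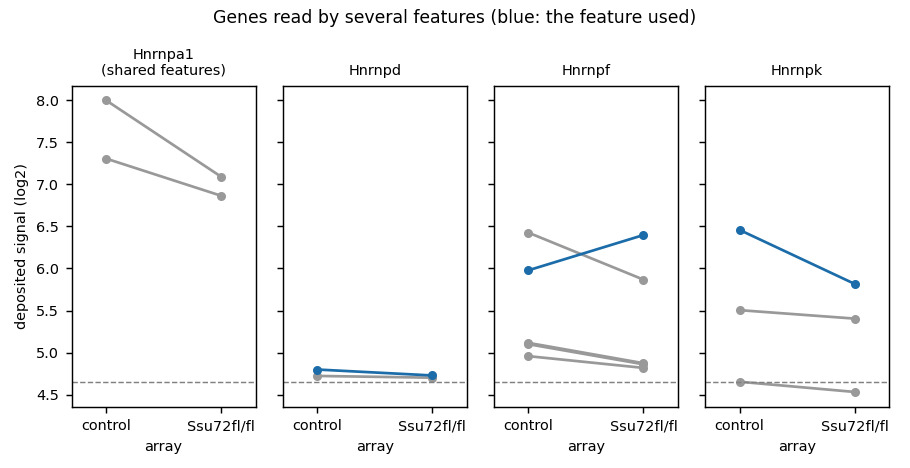
Deposited log2 signal (vertical axis) on both arrays (horizontal axis) for genes read by several features with signal above the floor on at least 1 array, with each line 1 feature, the feature used in blue and the floor of 4.65 dashed. The used feature of Hnrnpf climbs from 5.98 to 6.40 while the other 4 slope down; all 3 features of Hnrnpk slope down.

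The SR protein genes showed no common direction that held after level adjustment. As deposited, 6 of 9 were lower with a median of -0.18, but after adjustment 4 of 9 were lower and the median was 0.051. Srsf9, whose small SR protein is a close relative of Srsf1, had the most negative difference, at 6.00 and 5.47 (-0.53, level-adjusted -0.41, spread 0.26), just short of 1.5-fold. Srsf5 read 7.44 and 7.09 (-0.35) and Srsf2, which encodes the exon-binding protein SC35, read 7.03 and 6.70 (-0.33), both at a spread of 0.33.

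Srsf5 and Srsf2 were no lower than genes of like signal. Their level-adjusted differences were 0.10 and 0.066, and both flipped direction under quantile normalization too. Srsf4 (-0.20), Srsf1 (-0.18), the founding member of the family, and Srsf3 (5.26 and 5.15, -0.11) were lower, and remained so after level adjustment at -0.17, -0.13 and -0.078, each within the spread of 0.19 to 0.20 at their signal. Srsf6 read 5.31 and 5.32 (0.0056), and Srsf11 5.01 and 5.09 (0.087, spread 0.15). Srsf12 exceeded the floor only on the array labelled Ssu72fl/fl, which makes its difference of 0.082 a bound, and Srsf10 was below the floor on both.

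All 4 SR-related regulators were lower, with a median of -0.39 (-0.27 after level adjustment). Rbm39, a U2AF-like protein that promotes exon inclusion and is the target of aryl sulfonamide degraders, read 6.56 and 5.60. This was the most negative difference of all members, 1.95-fold lower (-0.96, level-adjusted -0.78, spread 0.26), and ranked 17 from the lowest of 13015 genes as deposited and 5 after adjustment. Tra2b, which binds GAA-rich exon enhancers, read 6.37 and 5.75, or 1.54-fold lower (-0.62, level-adjusted -0.43, spread 0.26).

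Its paralog Tra2a differed less, at 5.38 and 5.24 (-0.14, level-adjusted -0.093, spread 0.19). Rbm25, an RNA-binding protein that associates with the U1 particle, read 5.44 and 5.28 (-0.16, level-adjusted -0.11, spread 0.20). The differences of Tra2a and Rbm25 were thus smaller than the spread of genes at their signal, and those of Rbm39 and Tra2b larger.

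**Figure D4:**
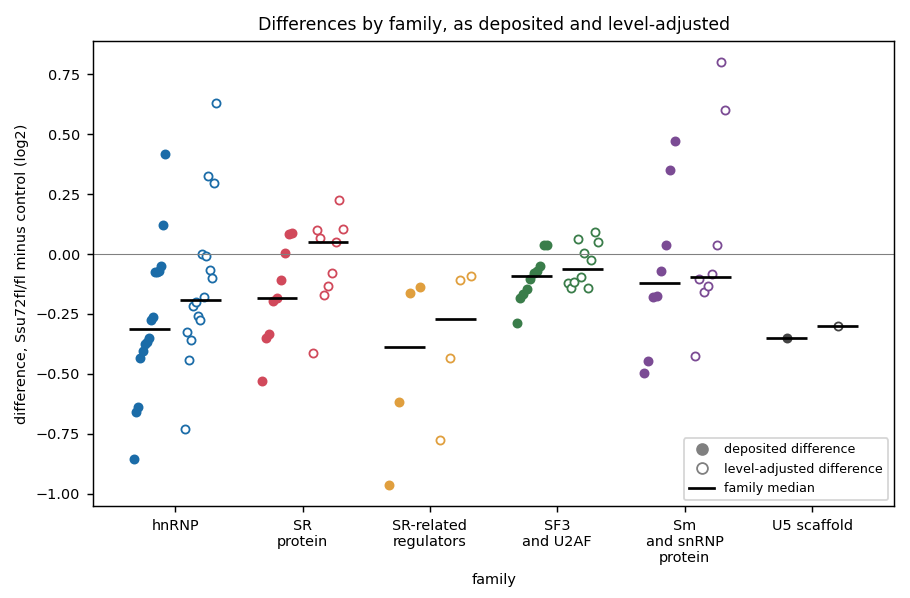
Difference between arrays (vertical axis, log2, Ssu72fl/fl minus control) of each compared member by family (horizontal axis), as deposited (filled) and level-adjusted (open), with bars at the family medians. The hnRNP median moves from -0.31 to -0.19, and the SR protein median from -0.18 to 0.051, while all 4 SR-related regulators stay below zero.

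Genes of the SF3 complexes and U2AF differed little. Of 10 compared, 8 were lower, with a median of -0.092, and 6 were lower after level adjustment (median -0.061). U2af1, the small U2AF subunit that reads the AG at the end of the intron, read 6.12 and 5.84 (-0.29, level-adjusted -0.12, spread 0.26), the most negative of the group as deposited. After level adjustment Sf3b5 (-0.14) was slightly more negative, as was Sf3a1, which was below the floor on 1 array. U2af2, the large subunit that binds the polypyrimidine tract, read 5.38 and 5.41 (0.037, level-adjusted 0.093, spread 0.20).

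The compared SF3B genes also differed little. Sf3b1, the scaffold that clamps the branch-point helix, read 6.23 and 6.09 (-0.14), and its level-adjusted value of 0.062 put it slightly above genes of like signal. Sf3b5 read 5.37 and 5.19 (-0.18, spread 0.19), Sf3b3 5.42 and 5.26 (-0.17, spread 0.20), Sf3b2 5.12 and 5.07 (-0.048, spread 0.16), and Sf3b6, which contacts the branch-point adenosine, 4.94 and 4.98 (0.038, spread 0.15). All 4 of these differences were smaller than their spread.

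Of the SF3A genes, Sf3a3 stood at -0.11 and Sf3a2 at -0.078. Sf3a1 fell below the floor on the array labelled Ssu72fl/fl, which makes -0.073 a bound, and Sf3b4 was below it on both. Prpf8, the U5 scaffold that holds the catalytic RNA core, read 5.55 and 5.19 (-0.35, level-adjusted -0.30, spread 0.20), a difference larger than its spread with and without adjustment.

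The Sm and snRNP protein genes went both ways. Sm proteins form the ring around most spliceosomal small nuclear RNAs, and of the 5 compared ring genes 2 were lower and 3 higher (median 0.038). Snrpb, which encodes SmB, read 5.56 and 6.03, or 1.39-fold higher (0.47, level-adjusted 0.60, spread 0.26), and ranked 85 from the highest of 13015 genes. Snrpg, which encodes SmG, read 7.05 and 7.40, or 1.28-fold higher (0.35, spread 0.33).

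At the signal of Snrpg most genes read lower, and its level-adjusted difference of 0.80 ranked 30 from the highest. Snrpd3, which encodes SmD3, the partner of SmB in the ring, went the other way at 6.83 and 6.38 (-0.45, level-adjusted -0.11, spread 0.33). Snrpd2 stood at -0.18 and Snrpe, close to the floor, at 4.66 and 4.70 (0.038), while Snrpd1 was below the floor on both arrays. The ring genes thus differed from one another in direction, with Snrpb and Snrpd3 at opposite ends as deposited, and Snrpg and Snrpd2 (-0.13) after level adjustment.

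The 3 genes of proteins specific to the U1 and U2 particles were all lower. Snrpc, which encodes the C protein of the U1 particle, which stabilises pairing with the intron's first bases, read 5.74 and 5.25 (-0.50, level-adjusted -0.43, spread 0.23). Snrpa1, of the U2 particle, read 5.20 and 5.02 (-0.18, level-adjusted -0.16, spread 0.16), and its partner Snrpb2 was below the floor on the array labelled Ssu72fl/fl, with a bound of -0.069. Genes of this family often have retrocopies, and how far the features read such copies was not tested.

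Features shared with other genes gave values for 3 further snRNP genes. The feature naming Snrpa (the A protein of the U1 particle) with 2 further symbols read 7.76 and 7.47 (-0.29, level-adjusted 0.18). The feature naming Snrpf with its neighbours read 5.74 and 5.62 (-0.13), and the pair naming Snrpn and Snurf stood at -0.031 and 0.13. Beside these and those of Hnrnpa1, the feature naming Hnrnph3 with Rufy2 stood at -0.031 and that naming Hnrnpk with Rmi1 at -0.25. The feature naming Sf3a2 with Plekhj1 read 4.77 and 4.96 (0.19), opposite in direction to the single-symbol feature of Sf3a2. None of these shared features can be assigned to 1 gene.

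Other protein-coding genes of the pathway were counted in 5 lists written with earlier results of these data known, and each list had a deposited median nearer to zero than the -0.17 of the members. The members had a median signal of 5.50, against 4.95 in the other spliceosome components. After level adjustment these components were about as low as the members, whose median was then -0.10 with 33 of 48 lower. Of 61 other spliceosome components 50 were compared, and 39 of these were lower (median -0.10, level-adjusted -0.097 with 35 lower). Each list counts genes above the floor on 1 array only, and that fixed the direction of their deposited difference. In the other spliceosome components these were Bud31, Prpf18, Ddx42, Slu7, Crnkl1 and Cdc40, all counted as lower. Snrnp70, the third protein specific to the U1 particle beside those of Snrpa and Snrpc, read 6.40 and 5.64 (-0.76, level-adjusted -0.58, spread 0.26), the only gene of that list at least 1.5-fold lower as deposited; after level adjustment it fell just short and none was. Syf2 followed at -0.53, and the other end was held by Prpf4 (0.25) and Prpf6 (0.16), both of the U4/U6.U5 particle.

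Of 34 compared genes of other splicing RNA-binding proteins, 26 were lower (median -0.15, level-adjusted -0.072 with 23 lower). Their ends were Nono (-0.44) and Elavl1 (-0.43), and Khsrp (0.17) and Pspc1 (0.16). Nono and Pspc1, partners in paraspeckles, thus stood at opposite ends. The list of kinases and importers of SR proteins, which also holds a few other regulators, had 8 of 14 lower (median -0.081). Clk1, a nuclear kinase of SR proteins, read 5.37 and 4.96 (-0.41). Cdk13 (-0.27), the kinase Clk4 (-0.26) and the importer Tnpo3 (-0.18) were lower too, each by more than its spread. Cdk11b (-0.15), Prpf4b (-0.13), Srpk2 (-0.084) and Cdk12 (-0.077, a bound) were lower by less than theirs. The upper end was held by Topors (4.77 and 5.07, 0.30), a ubiquitin and SUMO ligase, and Ppp1r8 (0.21), a regulator of protein phosphatase. The kinases Srpk1 (0.075), Dyrk1a (0.065) and Clk2 (0.017) and the importer Tnpo1 (0.031) were also higher, each by less than its spread.

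Genes of snRNP assembly showed about as many lower as higher, 6 of 11 lower with a median of -0.012, from Larp7 (-0.14) to Gemin7 (0.15). For the exon junction complex, export and nonsense-mediated decay, 11 of 16 listed genes were measured. Of these, 7 were compared and 6 were lower (median -0.071, level-adjusted -0.034). Rbm8a and Upf1 exceeded the floor on 1 array only, which fixed the direction counted for them. Smg1, a kinase of the decay pathway, read 5.45 and 4.97 (-0.48, level-adjusted -0.45, spread 0.19).

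**Figure D5:**
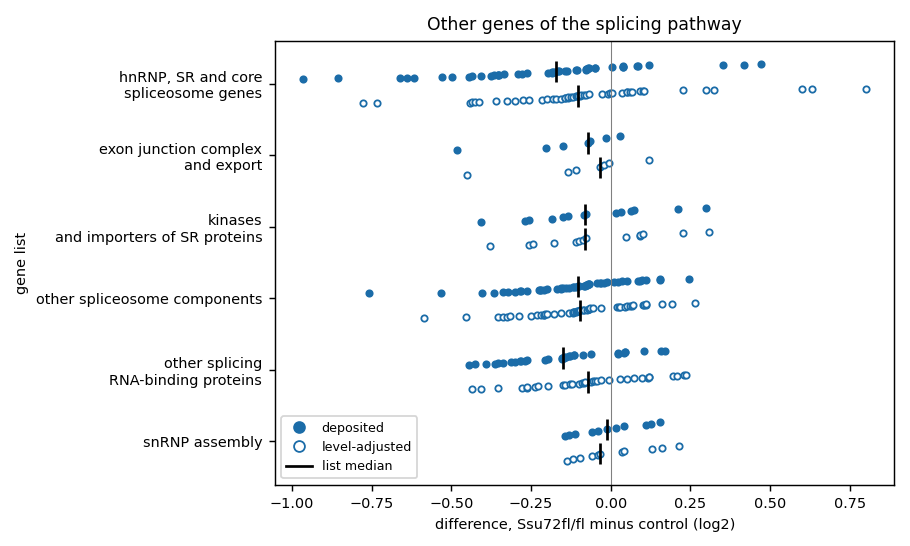
Difference between arrays (horizontal axis, log2, Ssu72fl/fl minus control) of each compared gene in the member set and 5 further lists of the splicing pathway (vertical axis), as deposited (filled) and level-adjusted (open), with bars at list medians; small nuclear RNA genes are not drawn. Medians run from -0.17 in the members to -0.012 in snRNP assembly as deposited, and the members span the widest range, from -0.96 to 0.47.

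Small nuclear RNAs were read by few features, and the 2 compared genes with a single symbol, Rnu11 and Rnu12, had a median of -0.21. A group of 9 features with the same values, each naming 3 U1 copies (Rnu1b1, Rnu1b2 and Rnu1b6), read 9.87 and 8.73 (-1.14, level-adjusted -0.75). Of the minor spliceosome, Rnu11 read 9.71 and 9.25 (-0.46, level-adjusted -0.12) and Rnu12 read 9.34 and 9.37 (0.032, level-adjusted 0.40). The U1 feature, like the U1-specific protein genes Snrnp70 and Snrpc, thus read lower with and without level adjustment, whereas the shared feature of the U1 gene Snrpa was lower only as deposited. Mature small nuclear RNAs are not polyadenylated, and how far such RNAs were labelled was not given in the sources used here.

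Marker genes of the sorted cells and of other lung cells also differed between the arrays. Of 19 measured alveolar macrophage markers 18 exceeded the floor, and 17 of these were lower (median -0.31, level-adjusted -0.052). The summed signal of these markers on the linear scale was 4771 on the control array and 3763 on the other. The compared markers had a median signal of 7.04, and 77.0% of all genes at a signal of 6 or more were lower as deposited. After level adjustment 12 of the 18 were lower, where 44.0% of the genes at that signal were. All 8 markers of interstitial macrophages and monocytes were lower (median -0.34, level-adjusted -0.28), at summed signals of 391 and 299. Alveolar type 2 markers had 7 of 9 lower (median -0.20, level-adjusted -0.049; 789 and 651), with the surfactant gene Sftpc at 8.71 and 8.35, well above the floor on both arrays. Endothelial markers had 5 of 5 lower (median -0.11; 180 and 157), neutrophil markers 4 of 4 (165 and 160) and fibroblast markers 3 of 4 (177 and 162), whereas 1 of 2 T cell markers (176 and 172) and 1 of 3 B cell markers (117 and 121) were lower. Beside these counts, 51.9% of all compared genes were lower as deposited. Ly6c2 of monocytes, Tek of endothelial cells and Cd3d of T cells exceeded the floor on 1 array only, which fixed the direction counted for them. Ly6g and Cxcr2 of neutrophils, Cd3e, Cd3g and Cd28 of T cells, Ms4a1 of B cells and Pdgfra of fibroblasts were below the floor on both arrays. The summed signals take in every measured marker, including those below the floor, whereas the counts and medians cover compared markers only. Where markers lie near the floor, such as those of neutrophils (4.41 to 5.18), the sums mostly hold signal at that level. In such bulk samples fewer cells of a type and less RNA per cell cannot be told apart, and the part of these shifts in the values of the splicing genes was not tested.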

How the data were processed

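The deposited values, 1 per feature and array, were made by the authors and are on a log2 scale, as inferred from their range of 4.23 to 13.5. MAS5 is named without a role, per the submitters' processing notes; how they were normalized or centred, and with what offset, was not given in the sources used here, and an offset would shrink differences at low signal. Per the labels' protocols, 6 ug of total RNA went into each biotinylated cRNA.

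Of 33793 features, 23521 carried 1 symbol, 1814 several and 8458 none, and 23328 of the first were matched to RefSeq symbols (GRCm38.p6). The members had 68 such features and 10 shared ones, the latter unused in counts. Members, lists, thresholds and the rule for named genes were chosen with earlier results of these data known. Full values went to the members at the ends of each family, the brightest of each, those at least 1.5-fold different, and Prpf8, both U2AF subunits and the SR-related genes. No protein sequences were analysed here.

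As floor, the 50th percentile over both arrays was taken. The spread is taken on deposited differences within 20 equal-sized bins of mean level. Hnrnpf (mean signal 6.19) and Rnu11 (9.48) fall in the same bin. The trend was fitted by lowess (span 0.3) on medians of bins of 0.1 with at least 10 features, and level-adjusted differences use values without the floor. The procedure was tested on simulated arrays that carried the same trend and less scatter than the spread of bright genes. The changes put in were larger than that of any member and only in genes of high signal. The simulation therefore says nothing about smaller differences or genes near the floor. Alternatives were median centring, quantile normalization, floors at the 25th and 75th percentiles, no floor, the mean over probe sets, platform symbols and the trend removed; a trend from protein-coding features and the set without Hnrnpf were chosen after seeing the data. Python 3.11.15, pandas 2.3.3 and statsmodels 0.14.6 were used.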

Additional observations from a re-analysis of the deposited data

How the results depend on the processing

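The count of members lower (38 of 48) was 39 of 48 under median centring, 33 of 48 under quantile normalization and with the trend removed, 34 of 48 with a trend from protein-coding features, 41 of 51 and 34 of 42 with floors at the 25th and 75th percentiles, 42 of 53 without a floor, 40 of 48 with the mean of probe sets, and 38 of 47 without Hnrnpf. The median of the members ranged from -0.18 to -0.10. The 5 members at least 1.5-fold lower became 2 under quantile normalization, with the trend removed and with the protein-coding trend, and 3 with the mean of probe sets; the 0 members at least 1.5-fold higher became 3 under the first 3 of these, and the count of members 2-fold different was 0 throughout. The hnRNP median (-0.31) was -0.19 under quantile normalization, -0.19 with the trend removed and -0.20 with the protein-coding trend. The SR protein median (-0.18) changed sign, to 0.049 under quantile normalization, 0.051 with the trend removed and 0.0073 with the protein-coding trend. The medians of the SF3 and U2AF genes and of the Sm and snRNP protein genes moved by less than 0.1, and that of the SR-related regulators, computed with the trend removed only, went from -0.39 to -0.27. Of the 20 genes followed through these settings, Hnrnpl, Srsf2 and Srsf5 changed sign under quantile normalization and both trends, and Hnrnpf with the mean of probe sets (-0.15). Among the members not followed otherwise, Sf3b1 (0.062) and Sf3a2 (0.0030) were above zero with the trend removed. Rbm39 ranged from -0.98 to -0.78, Hnrnpm from -0.87 to -0.73, Hnrnpk from -0.65 to -0.29, Tra2b from -0.63 to -0.43, Hnrnpu from -0.67 to -0.33, Snrpb from 0.46 to 0.61 and Snrpg from 0.34 to 0.80. Platform symbols changed no value. No paired analysis was possible because each genotype has 1 array and the labels carry no replicate numbers. With 1 array per genotype, scatter between animals and between hybridisations is unknown, and genes near the floor have only bounds.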

Other observations

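Members were split by whether a promoter window held a motif, as a description of 43 compared genes with a window. Of the 15 genes with CCGGAAG in a window, 10 were lower, with a median difference of -0.070 (level-adjusted -0.027), and of the 28 without it 25 were lower, with a median of -0.28 (level-adjusted -0.13). For CGCGAGA, 5 of 7 genes with the motif were lower (median -0.050, level-adjusted -0.078), and 30 of 36 without it (median -0.18, level-adjusted -0.11). Rbm39, with the most negative difference of all members, holds CGCGAGA and not CCGGAAG, and Snrpg, with the highest level-adjusted difference, holds both. These splits were not tested.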
